A study of Homo sapiens with 16 samples.

Results

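The locus of SYTL3 and EZR on chromosome 6 was described in MED1 ChIP-seq peak lists of HCT116 cells, a human colorectal carcinoma line. Its members are the peaks of 6 lists that overlap hg19 159.05 to 159.29 Mb, and they number 57 of the 3464 peaks listed in all. Joining overlapping peaks of the lists gave 16 positions, numbered here from 1 to 16 along the chromosome, of 1584 such positions genome-wide. The interval was selected on the number, fold and width of its peaks in these same lists, so those values are given as a description and none of them is tested.

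MED1 is a subunit of Mediator, the complex that bridges transcription factors bound at enhancers and RNA polymerase II, and dense runs of MED1 peaks are widely used to mark strong enhancers. MED14 is the Mediator subunit that holds the head, middle and tail modules together. EZR encodes ezrin, which links the plasma membrane to the actin cytoskeleton and is known from the microvilli of intestinal epithelium. SYTL3 encodes synaptotagmin-like protein 3, a Rab27 effector in vesicle transport.

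MED14-AID cells are a CRISPR/Cas9-edited HCT116 line of genotype OsTir1+/-;Med14-AID+/+. Their MED14 carries an auxin-inducible degron, and auxin lets the plant protein OsTir1 send it to the proteasome. They received 500 µM auxin for 3 h with Nutlin-3a for 1 h afterwards, auxin alone, water with Nutlin-3a afterwards, or water alone, with 1 MED1 library each. Nutlin-3a frees p53 from MDM2. All 4 treatments share the tag and OsTir1, and the promoter of OsTir1 and the number of clones are not given in the sources used here. Unedited (WT) cells received Nutlin-3a or DMSO for 1 h, with 2 MED1 libraries each behind 1 joint peak list. The labels give no DMSO hour for the MED14-AID cells without Nutlin-3a. The 16 samples were 8 MED1 libraries and 8 inputs. The lists hold from 53 to 1254 peaks and no read counts, so depth is unknown, and with 1 list per condition no difference below has a replicate error or a test. A position missing from a list may hold MED1 below the authors' threshold, and the weakest listed −log10 q was between 1.58 and 2.76.

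The starts of the genes are shown first because MED1 was listed near that of EZR and along the body of SYTL3. The lists use hg19, in which the gene spans are at hand only to the nearest 10 kb, SYTL3 from 159.07 to 159.19 Mb and EZR from 159.19 to 159.24 Mb. SYTL3 is on the plus strand and EZR on the minus strand, so that EZR starts toward the upper end of its span. In RefSeq's GRCh38.p14 table the order along the chromosome is DYNLT1, SYTL3 with AMZ2P2 and MIR3918 inside it, EZR, EZR-AS1 and OSTCP1, and 876 bases part the ends of SYTL3 and EZR. The antisense RNA EZR-AS1 begins 256 bases inside the EZR start used here, on the other strand, and peaks have no strand, so MED1 there cannot be given to either gene. Both genes matched the RefSeq promoter table, SYTL3 with 2 starts 12893 bases apart. The EZR start used, 158818235, lies inside the EZR span of GRCh38, which ends at 158819368. The 250 bases shown for EZR thus lie within that span. The 250 bases before each start follow, 5′ to 3′ on the strand of the gene. They lie at chr6:158818236-158818485 (minus strand) for EZR and at chr6:158649804-158650053 and chr6:158662697-158662946 (plus strand) for the upstream and the downstream SYTL3 start, all GRCh38.p14. Capitals mark TGANTCA, the AP-1 motif, on either strand.
EZR: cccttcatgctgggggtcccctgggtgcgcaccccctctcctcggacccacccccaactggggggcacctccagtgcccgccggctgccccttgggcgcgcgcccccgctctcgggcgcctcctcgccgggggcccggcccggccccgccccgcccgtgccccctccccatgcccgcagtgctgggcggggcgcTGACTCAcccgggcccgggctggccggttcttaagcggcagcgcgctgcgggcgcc
SYTL3 upstream start: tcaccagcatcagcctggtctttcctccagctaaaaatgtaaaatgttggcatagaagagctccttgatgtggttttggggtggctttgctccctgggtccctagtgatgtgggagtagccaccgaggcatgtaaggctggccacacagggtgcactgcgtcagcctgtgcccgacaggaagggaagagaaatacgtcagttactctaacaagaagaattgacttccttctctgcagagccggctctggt
SYTL3 downstream start: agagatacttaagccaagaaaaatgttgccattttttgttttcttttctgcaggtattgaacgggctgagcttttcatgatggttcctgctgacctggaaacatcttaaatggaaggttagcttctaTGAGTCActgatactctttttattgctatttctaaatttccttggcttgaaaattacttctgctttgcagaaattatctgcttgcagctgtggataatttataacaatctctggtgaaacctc

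The 3 stretches differ in base composition. The EZR one is 80.8% G or C and holds 28 CpG, more than 84.1% of the 35116 promoter windows of the same length. The upstream SYTL3 window is 52.4% G or C with 5 CpG, and the downstream one 36.4% with 1 CpG, against medians of 58.0% and 11 CpG over all windows. TGANTCA was found once before EZR, 49 bases from its start, and once before the downstream SYTL3 start, 116 bases from it. Of all windows, 6.57% hold it. GGGCGG, the SP1 core, was found on either strand at 3 places before EZR, a pair of which share a base and none of which overlaps TGANTCA. It was found before neither SYTL3 start, and 42.6% of all windows hold it. TATAAA was found 20 bases before the downstream SYTL3 start on the opposite strand only, where the printed strand reads tttata, and on either strand in 10.7% of all windows. A single decamer of the p53 response element was in none of the 3 windows and in 5.57% of all. These matches describe letters only.

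The locus held from 1.36% to 2.38% of the peaks of each list, the auxin lists included. There were 12 of 522 peaks in the MED14-AID line under water and Nutlin-3a (2.30%) and 11 of 463 with water (2.38%). In WT cells there were 17 of 1254 peaks with Nutlin-3a (1.36%) and 15 of 1106 with DMSO (1.36%). Each auxin list had 1 peak here, of 66 with Nutlin-3a (1.52%) and of 53 with auxin alone (1.89%), so its share of the auxin lists was no lower than that of the WT lists. On chromosome 6 these lists had 3 and 2 peaks in all. The locus held 34.3% and 42.3% of all chromosome 6 peaks in the 2 water lists, with and without Nutlin-3a. In WT cells it held 23.6% of them with Nutlin-3a and 21.1% with DMSO.

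The locus peaks were mostly wider than those of the list they came from, whereas their folds were spread over it. Their median width was 1089 bp with water and Nutlin-3a (list 830.5 bp) and 974 bp with water (list 833 bp). In WT cells it was 1032 bp with Nutlin-3a (list 818 bp) and 1658 bp with DMSO (list 760.5 bp). The median fold was 4.45 with water and Nutlin-3a (list 4.25) and 4.14 with water (list 4.38), and in WT cells 4.04 with Nutlin-3a (list 3.41) and 3.18 with DMSO (list 3.19). Ranked by −log10 q, 3 locus peaks of each water list and 5 of each WT list were among the strongest 10% of their list.

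**Figure D1:**
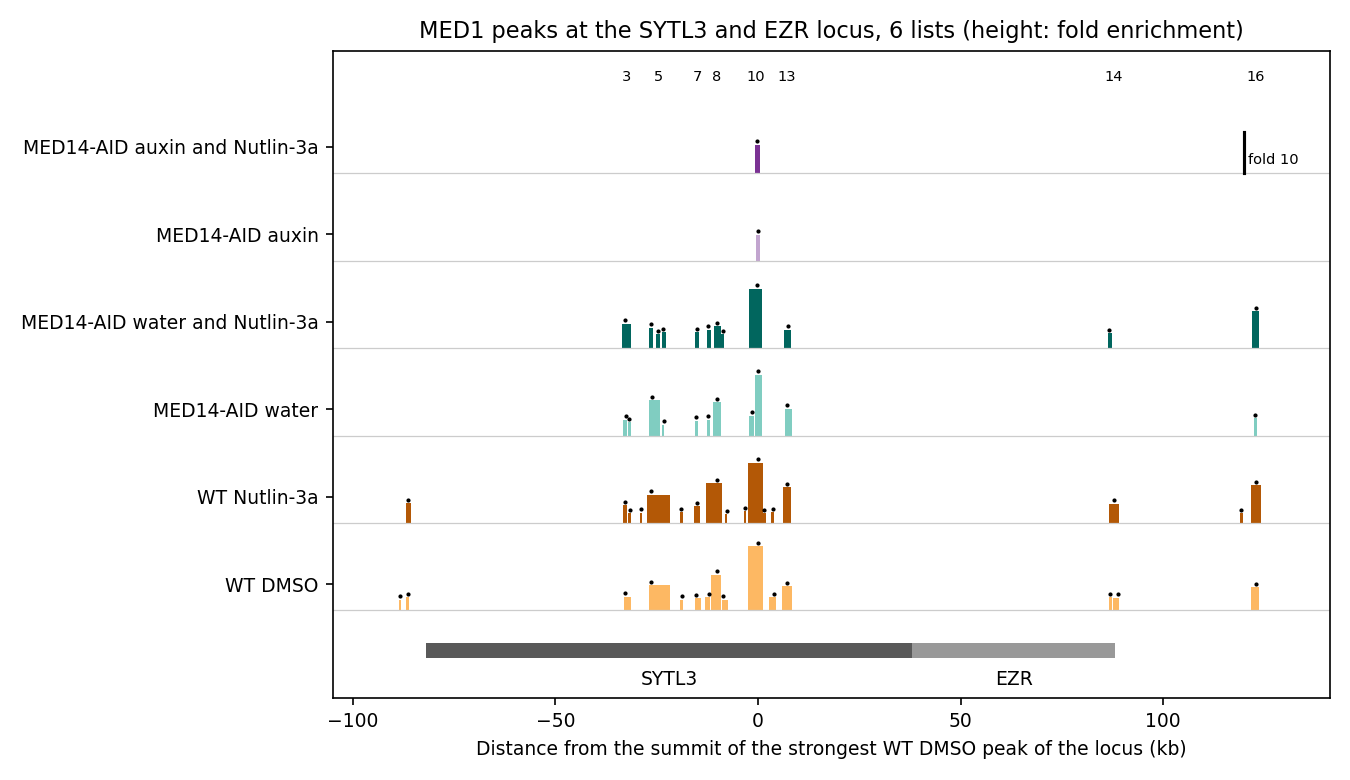
MED1 peaks at the locus by list, against the distance in kb from the summit of the strongest WT DMSO peak. Bars span each peak, their height is the authors' fold enrichment, dots mark summits, grey bars the gene spans rounded to 10 kb, and the numbers above name positions present in 3 or more lists. The peaks crowd within SYTL3, a 78.2 kb stretch up to the start of EZR is empty in all 6 lists, and each auxin list keeps 1 peak.

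The locus fell into 4 parts. Positions 1 and 2 lay near the start of SYTL3, on the side of its neighbour DYNLT1. Positions 3 to 13 lay inside SYTL3, position 14 at the start of EZR, and positions 15 and 16 past EZR. By peaks, the SYTL3 span held 1 in each auxin list, 10 in each water list, 13 with Nutlin-3a and 10 with DMSO in WT cells. Between position 13 and position 14 no list had a peak over 78.2 kb, a stretch that takes in the end of SYTL3 and most of EZR. Between positions 2 and 3 a further 52.2 kb were empty. Just past the window a peak from 159290215 in the MED14-AID line under water and Nutlin-3a (fold 3.36), from 159290126 in WT cells with Nutlin-3a (fold 2.88) and from 159290213 with DMSO (fold 2.84) was not counted. On the other side the nearest peak was 1305 kb or more away in every list.

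Inside SYTL3 the peaks formed a cluster that led or nearly led each of the 4 lists without auxin, while in each auxin list it was a single peak. With peaks up to 10 kb apart joined, it ran from 159118377 to 159160089 with 10 peaks in the MED14-AID line under water and Nutlin-3a. With water alone it ran from 159118640 to 159160165, also with 10 peaks. In both lists it had more peaks and more covered bases than any other of the 352 and 300 clusters, at 14.1 kb and 13.0 kb. In WT cells with Nutlin-3a it had 13 peaks over 22.5 kb, the most of 832 clusters by either measure. In WT cells with DMSO it had 10 peaks over 22.3 kb and ranked 3rd of 782 by peaks, after a cluster of 12 on chromosome 8 and one of 11 on chromosome 4 from 30754764. The next largest clusters held 5 peaks with water and Nutlin-3a, 7 with water and 11 in WT cells with Nutlin-3a. Peaks filled 33.8% and 31.4% of the cluster's span in the 2 water lists with and without Nutlin-3a, and 54.2% and 54.0% in the WT lists with Nutlin-3a and DMSO. The rank rests on the joining distance. At 5 kb the water clusters broke up, and only the piece with the strongest peak was ranked. With Nutlin-3a that piece was 1 peak, as were 305 of the 393 clusters, at rank 89. Without it the piece had 2 peaks, as had 49 of 341 clusters, at rank 30. The WT clusters stayed whole at 5 kb and ranked 1st with each treatment.

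Position 10, in the right-hand part of the SYTL3 cluster, was the strongest of the locus and the only one of the 16 in all 6 lists. Its fold was 6.84 with auxin and Nutlin-3a, 6.28 with auxin, 14.3 with water and Nutlin-3a, and 14.7 with water. In WT cells it was 14.6 with Nutlin-3a and 15.6 with DMSO. The 4 lists without auxin lay between 14.3 and 15.6 and both auxin lists below them, but a fold depends on each library's depth and background. It ranked 20th of 66 and 22nd of 53 by fold in the auxin lists, 6th of 522 and 7th of 463 in the water lists, each with and then without Nutlin-3a, and 7th of 1254 with Nutlin-3a and 6th of 1106 with DMSO in WT cells.

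**Figure D2:**
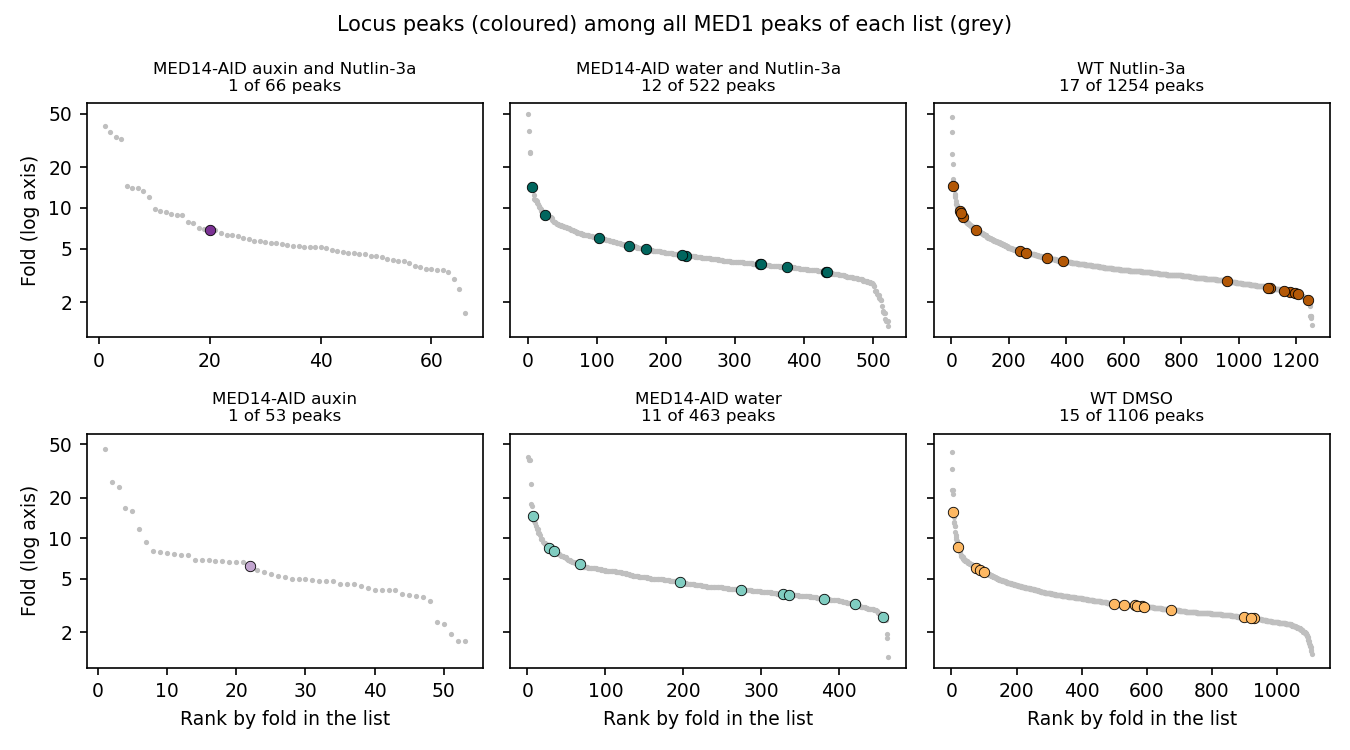
Fold of every MED1 peak (log axis) against its rank in the list, with locus peaks coloured and the rest grey. In the lists without auxin the locus has a peak at rank 6 or 7 and others spread down to the weak end, and in each auxin list its single peak lies at rank 20 or 22.

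In bp the peak at position 10 was wider without auxin than with it, but in each list it was among the wider peaks. The auxin lists had median widths of 669 bp with Nutlin-3a and 663 bp without. By width the peak ranked 6th of 66 and 9th of 53 there. In the water lists it ranked 5th of 522 with Nutlin-3a and 49th of 463 without, and in WT cells 34th of 1254 with Nutlin-3a and 18th of 1106 with DMSO. It ran from 159151237 to 159152305 (1069 bp) with auxin and Nutlin-3a and from 159151426 to 159152380 (955 bp) with auxin. With water and Nutlin-3a it ran from 159149602 to 159152927 (3326 bp). With water alone the same stretch was split into a weaker peak from 159149566 to 159150910 (fold 4.75) and the strong one from 159151127 to 159152827 (1701 bp). In WT cells it ran from 159149477 to 159152984 (3508 bp) with Nutlin-3a and from 159149378 to 159153154 (3777 bp) with DMSO. All 6 shared 880 bases, from 159151426 to 159152305. Set against the list without auxin, the peak with auxin and Nutlin-3a lacked mostly the left flank, whereas the peak with auxin alone lay inside the water peak and was shorter at both ends.

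The summits of position 10 fell within 227 bp of each other. They were at 159151694 with auxin and Nutlin-3a, 159151921 with auxin, 159151746 with water and Nutlin-3a, and 159151890 with water. In WT cells the summit was at 159151808 with Nutlin-3a and 159151874 with DMSO. In each of the 3 pairs of lists the one with Nutlin-3a had its summit further left, with a shift of -227 bp under auxin, -144 bp with water and -66 bp in WT cells. Over all overlapping peaks of these pairs the median distance between summits was 27.0, 109 and 79.0 bp, and 52.9%, 48.2% and 50.1% of the shifts were to the left.

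**Figure D3:**
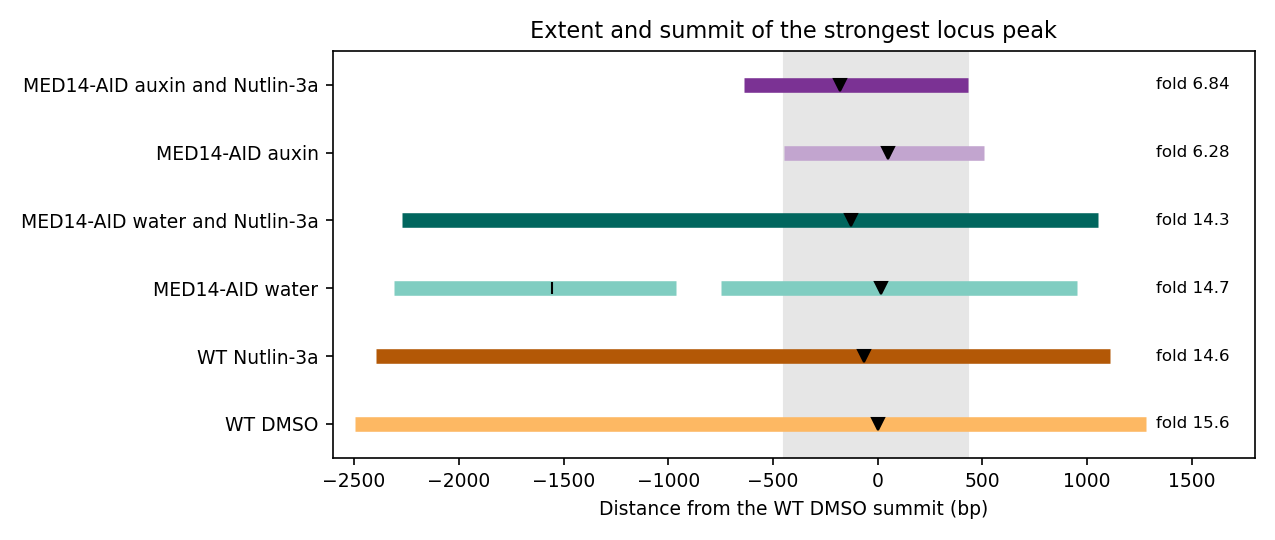
Extent (bars) and summit (triangles) of the peak at position 10 in each list, against the distance in bp from the WT DMSO summit, with the fold at the right and the 880 bases common to all lists shaded. The tick marks the summit of the weaker water peak beside it. The auxin peaks cover the right part of the undivided wide peaks, and the peak with auxin alone lies inside the stronger water peak.

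Around it, 5 positions of the SYTL3 cluster were in all 4 lists without auxin and in neither auxin list. At position 8, 159138906 to 159144448, the highest fold was 5.22 with water and Nutlin-3a and 8.04 with water, and in WT cells 9.58 with Nutlin-3a and 8.63 with DMSO. This was the second strongest position of both WT lists. It was cut up differently from list to list, into 3 peaks with water and Nutlin-3a and 2 with water, and in WT cells into 2 with Nutlin-3a and 3 with DMSO.

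Position 5, 159124502 to 159130225, held some of the widest peaks of the WT lists. A single peak covered 5724 bp in WT cells with Nutlin-3a and 5196 bp with DMSO, ranks 4 and 8 by width. In MED14-AID cells it was listed as 3 peaks with water and Nutlin-3a, covering 3002 bp, and as 2 with water, covering 3069 bp. The highest fold was 4.93 with water and Nutlin-3a, 8.51 with water, and in WT cells 6.86 with Nutlin-3a and 6.07 with DMSO.

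The other 3 were at both ends of the cluster and in its middle. Position 13, 159157872 to 159160165, had a fold of 4.48 with water and Nutlin-3a and 6.44 with water, and in WT cells 8.59 with Nutlin-3a and 5.85 with DMSO. Position 3, 159118377 to 159120640, had 5.94 with water and Nutlin-3a and 3.87 with water, and in WT cells 4.24 with Nutlin-3a and 3.27 with DMSO. Position 7, 159136050 to 159137734, had 3.80 with water and Nutlin-3a and 3.55 with water, and in WT cells 4.04 with Nutlin-3a and 2.96 with DMSO. Positions 3 and 7 were thus the weaker of the 5 in 3 of the 4 lists, and position 3 the strongest of them with water and Nutlin-3a.

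The 5 remaining SYTL3 positions, 4, 6, 9, 11 and 12, were in WT lists only, with folds from 2.34 to 3.16. Positions 6 and 12 were listed with both treatments. Positions 4, 9 and 11 were missing from the DMSO list, and position 9, from 159148488, reached a −log10 q of 10.5. Position 11 lay 0.027 kb past the end of position 10, close beside the strongest peak.

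**Figure D4:**
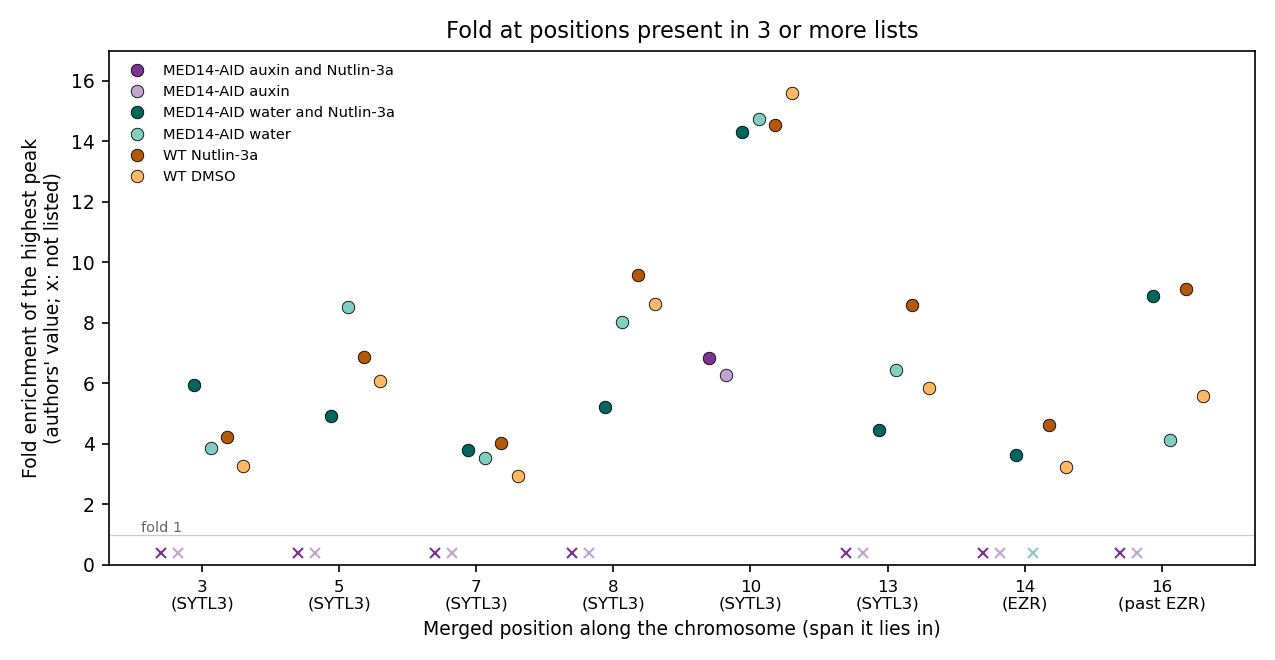
Authors' fold of the highest peak at each position present in 3 or more lists, by list, with crosses at the foot where a list has no peak. Position 10 stands above the others in all 6 lists, and each of the other 7 positions is without a peak in both auxin lists.

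At the start of EZR, position 14, 159238367 to 159241059, was modest in strength. It straddles the upper end of the EZR span as rounded, so how many bases part it from the start was not determined. In MED14-AID cells a peak from 159238367 to 159239306 was listed with water and Nutlin-3a (fold 3.64, −log10 q 4.66), and none with water. In WT cells 1 peak from 159238429 to 159240896 was listed with Nutlin-3a (fold 4.63, −log10 q 20.6). With DMSO there were 2, from 159238492 to 159239221 (fold 3.22) and from 159239402 to 159241059 (fold 3.12, −log10 q 8.10). Neither auxin list had a peak here. No other peak lay in the EZR span in any list.

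Before SYTL3, MED1 was listed in WT cells only. Position 2, 159064968 to 159066210, had a fold of 4.76 with Nutlin-3a and 3.13 with DMSO. Position 1, 159063303 to 159063805, was in the DMSO list alone with a fold of 2.54. With the gene spans rounded, position 2 may reach the start of SYTL3, whose RefSeq span in GRCh38 begins 5118 bases before the upstream start shown above. In GRCh38 the DYNLT1 span runs from 158636474 to 158644743 and the SYTL3 span begins at 158644936, so MED1 here cannot be given to either gene. These are bounds of spans, and which end of DYNLT1 is its start is not given here.

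Past EZR, on the side of its start, position 16 lay at 159273501 to 159276028. Its fold was 8.89 with water and Nutlin-3a and 4.14 with water, and in WT cells 9.13 with Nutlin-3a and 5.59 with DMSO. Its summits were within 112 bp of each other, from 159274652 with water to 159274764 with DMSO. The peak was 1846 bp wide with water and Nutlin-3a and 826 bp with water, and 2499 bp with Nutlin-3a and 1915 bp with DMSO in WT cells. Beside it, position 15, from 159270962, had a peak under Nutlin-3a in WT cells alone (fold 2.29). Neither position was in an auxin list.

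To see what Nutlin-3a treatment went with at the locus, lists with and without it were compared, an overlap of at least 1 bp counting as shared. In WT cells 4 of 17 Nutlin-3a peaks overlapped no DMSO peak, those at positions 4, 9, 11 and 15, against 35.0% of the whole list. In reverse 1 of 15 DMSO peaks, at position 1, overlapped no Nutlin-3a peak, against 26.5% of that list. In the MED14-AID line under water, 2 of 12 Nutlin-3a peaks had no overlap with the list without it, against 31.2% of the list. These were the peak at position 14 and a peak from 159142788 to 159143395 inside position 8. None of the 11 peaks without Nutlin-3a was missing with it, against 22.5% of the list. The Nutlin-only peaks had folds of 2.29 to 2.86 in WT cells and of 3.33 and 3.64 with water, below the list medians of 3.41 and 4.25. No position was Nutlin-only in both lines. Positions 9 and 11 lay 0.385 and 0.027 kb from the DMSO peak at position 10. With a gap of up to 1 kb counted as shared, Nutlin-only locus peaks came to 11.8% in WT cells and 8.33% with water. With a reciprocal overlap of 50%, 7 of 12 locus peaks with water and Nutlin-3a and 6 of 11 with water alone had no partner. The 7 include the 2 named above that overlapped no peak at all. A wide peak over a narrow one does not count by that rule. No whole-list share is given here for the 1 kb gap or the reciprocal overlap.

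The order of the positions within a list differed between lists with and without Nutlin-3a, and fold is given here as a percent of the highest locus fold of the same list. Position 16 was at 62.0% with water and Nutlin-3a and 28.1% with water, and in WT cells at 62.7% with Nutlin-3a and 35.9% with DMSO. Among locus positions this made it 2nd with water and Nutlin-3a and 5th with water, and in WT cells 3rd with Nutlin-3a and 5th with DMSO. Position 3 was at 41.5% with water and Nutlin-3a and 26.3% with water, and in WT cells at 29.1% with Nutlin-3a and 21.0% with DMSO. Position 7 differed by 2.49 percentage points with water and 8.78 in WT cells, also higher with Nutlin-3a. Positions 5, 8 and 13 were higher with Nutlin-3a in WT cells and lower with it in MED14-AID cells with water. In WT cells each position named here was higher with Nutlin-3a on this measure. Its divisor, the fold of position 10, was 14.6 with Nutlin-3a and 15.6 with DMSO. Position 16 was singled out after its values were seen.

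**Figure D5:**
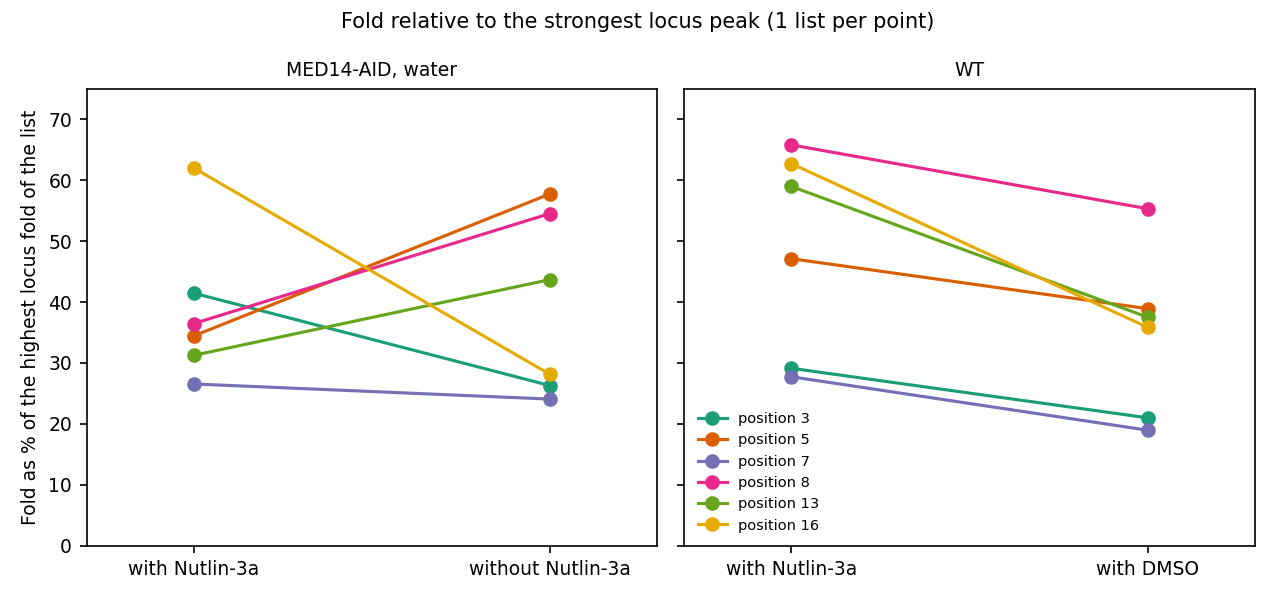
Fold as a percent of the highest locus fold of the same list, with Nutlin-3a on the left and without it on the right of each panel, for the 6 positions other than 10 that were in all 4 lists without auxin. Each point is 1 list. Position 16 stands at 62.0% and 62.7% with Nutlin-3a and at 28.1% and 35.9% without it, while the lines of positions 5, 8 and 13 slope in opposite ways in the panels.

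With auxin, all locus peaks but 1 were missing from the lists. Peak lists do not show whether MED14 itself was depleted. With Nutlin-3a, 1 of 12 peaks of the water list overlapped an auxin peak, against 9.0% of the list, and without Nutlin-3a 1 of 11 did, against 9.50% of the list. Both kept peaks are those at position 10, and the shares are close to those of the lists. They rest on the list lengths: with the water lists cut to the length of the auxin lists by −log10 q, 1 of 3 locus peaks with Nutlin-3a and 1 of 4 without it were kept (33.3% and 25.0%). No share over all peaks of the cut lists is given here, and 9.0% and 9.50% are those of the uncut lists. The single auxin and Nutlin-3a peak overlapped the single auxin one, against 51.5% of that list. Among the strongest of 10 equal parts of each water list by −log10 q, 30 of 52 Nutlin-3a peaks were kept (57.7%). In the list without Nutlin-3a 21 of 46 were kept (45.7%). The locus had 3 peaks in each of these parts, 1 of which was kept. Of clusters with 5 or more peaks, 2 of 6 with water and Nutlin-3a and 3 of 8 with water had a kept peak. A cluster counts here with any 1 of its peaks kept, so these counts cannot be set against the shares per peak. No share over all clusters is given here. With a reciprocal overlap of 50%, none of the 12 peaks with water and Nutlin-3a was kept, as the auxin peak covers less than that share of the wide water peak. Without Nutlin-3a the kept share of the 11 peaks stayed at 9.09% by that rule. No whole-list share by it is given here.

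The edited line was compared with WT cells without auxin. All 12 locus peaks with water and Nutlin-3a overlapped a WT Nutlin-3a peak, against 86.8% of the list, and all 11 with water overlapped a WT DMSO peak, against 85.1%. In reverse 9 of 17 WT Nutlin-3a peaks overlapped a peak with water and Nutlin-3a, against 33.2% of the list, and 8 of 15 WT DMSO peaks overlapped one with water, against 33.3%. The WT peaks without a partner were those of positions 1, 2, 4, 6, 9, 11, 12 and 15, one of the peaks at position 8 in each list, and with DMSO also those at position 14. Line, mock treatment and number of libraries per list cannot be told apart here. By reciprocal overlap of 50%, for which no whole-list share is given, the shares of water locus peaks in WT lists were 33.3% with Nutlin-3a and 36.4% without. Those of WT locus peaks in the water lists were 23.5% and 26.7%.

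Where peaks overlapped, most summits lay close together and some lay over 1 kb apart. The median distance at the locus was 107 bp between the 13 pairs of WT Nutlin-3a and DMSO peaks and 139.5 bp between the 10 pairs of water peaks with and without Nutlin-3a. Over the whole lists the medians were 79.0 and 109 bp. Between the edited and the WT line the medians were 102.5 bp with Nutlin-3a and 112 bp without it, against 99.0 and 107.5 bp over the lists. The largest distance, 3174 bp, was at position 5, which was split with water and whole in WT cells with DMSO. Of the 12 pairs of water and Nutlin-3a with WT Nutlin-3a, 5 differed by over 1 kb. With the middle of the peak in place of the summit, the medians between the edited and the WT line were 572.5 bp with Nutlin-3a and 453 bp without it, against 145 and 140.0 bp over the lists. Between lists with and without Nutlin-3a they were 187 bp in WT cells and 186 bp with water, against 106 and 118 bp over the lists.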

How the data were processed

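MED1 was measured by ChIP-seq in HCT116 cells. Reads were aligned to hg19, and Bowtie 0.12.9 and MACS2 2.1.2 are named, per the submitters' processing notes. The deposited narrowPeak files give, for each peak, the fold enrichment over background and the −log10 q as the authors' peak caller wrote them. Both WT libraries of a condition share 1 deposited list, whose peak names say merged. Inputs were not used here. Both values describe, rank or filter peaks within a list, and no test was run.

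The interval, positions and alternatives were chosen with earlier results of these data known. Peaks overlapping by at least 1 bp counted as shared, and peaks of all lists were joined into positions. Clusters join peaks up to 10 kb apart. Named positions are all 16 of the locus. Intervals in the closing section are Wilson 95% intervals over peaks and cover counting error only. Overlaps were checked with bedtools 2.31.1 (0 of 60 counts different) and on simulated peaks. Scripts ran in Python 3.11.15 with pandas 2.3.3 and numpy 2.4.6, with scipy 1.17.1 for intervals and matplotlib 3.10.9 for plots. Promoters and gene order are RefSeq's for GRCh38.p14, and no coordinate was converted between builds.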

Additional observations from a re-analysis of the deposited data

Results flagged for a closer look

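At 3 positions inside SYTL3 the lists with and without Nutlin-3a differed in opposite ways in the edited and the WT line. The measure is the fold as a percent of the highest locus fold of the same list. At position 5 the difference was -23.3 percentage points with water (Nutlin-3a minus none) and 8.21 in WT cells (Nutlin-3a minus DMSO). At position 8 it was -18.1 points with water and 10.5 in WT cells. At position 13 it was -12.4 points with water and 21.5 in WT cells. By −log10 q in place of fold, an alternative added after seeing the data, the WT differences were smaller, at 6.12 points at position 5, 5.95 at position 8 and 10.9 at position 13, and those with water were -17.7, -14.5 and -12.7. As a percent of the list's median fold, likewise added, those with water were -78.3, -60.6 and -41.7 and those in WT cells 10.9, 10.4 and 68.4, so the signs held and the sizes depend on the scale. Each value compares 1 list with 1 list, and the difference between the lines was not tested.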

How the results depend on the processing

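The shares of overlapping peaks in this section are of locus peaks only, and no whole-list share under these alternatives is given. Of them, 55 recomputed values stayed within the Wilson interval and 11 moved. With 1 to 17 peaks behind a share these intervals are wide, so staying within one is a weak statement: Nutlin-only peaks in WT cells came to 47.1% at a reciprocal overlap of 50%, and kept peaks at equal list lengths to 33.3% with Nutlin-3a and 25.0% without. At a reciprocal overlap of 50%, DMSO-only peaks in WT cells came to 40.0%, Nutlin-only peaks with water to 58.3%, and peaks only without Nutlin-3a with water to 54.5%. Peaks with water and Nutlin-3a kept with auxin and Nutlin-3a came to 0.0%. Water peaks in WT lists came to 33.3% with Nutlin-3a and 36.4% without, and WT peaks in water lists to 23.5% and 26.7%. Over the gene spans alone DMSO-only peaks came to 0.0%. With lists cut to equal length, 88.9% of the 9 WT Nutlin-3a locus peaks left overlapped one with water and Nutlin-3a. Of the 8 WT DMSO locus peaks left, 87.5% overlapped one with water. Cut to the length of the shortest list, the locus kept 3 peaks with water and Nutlin-3a, 4 with water, 4 in WT cells with Nutlin-3a and 3 with DMSO. At a −log10 q of at least 10 it kept 6 with water, 10 in WT cells with Nutlin-3a and 9 with DMSO. By a joining distance of 5 kb, the piece with the strongest peak ranked 89 with water and Nutlin-3a, as a single peak. With water it ranked 30, as a piece of 2 peaks. At 20 kb the whole cluster ranked 2 with water. In WT cells it ranked 2 with Nutlin-3a at 20 kb, and with DMSO 1 at 5 kb and 5 at 20 kb. In alternatives added after seeing the data, the difference at position 16 was 18.5 points with water and 17.5 in WT cells by −log10 q, and 114.6 and 92.5 points as a percent of the list's median fold. No position turned its sign, but the order of the lists did turn by locus peaks at the shortest length. At 5 kb it also turned by the rank of the piece with the strongest peak. The causes were not tested, beyond what each rule itself fixes. No paired analysis was possible because each WT list joins its replicates, and for the same reason no replicate could be left out. Depth is unknown, so a missing peak is not shown to be absent MED1.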

Other observations

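Position 16, past the start of EZR, was set beside all 288 positions present in the 4 lists without auxin. With each fold divided by the median fold of its list, the value with Nutlin-3a was 2.21 times that without in MED14-AID cells with water, the 3rd highest of 288. In WT cells it was 1.53 times, the 21st highest. No other of the 288 was at least as high in both. Over all 288 the ratio had a median of 1.05 in each line, and from the 10th to the 90th percentile it ran from 0.731 to 1.46 with water and from 0.764 to 1.46 in WT cells. The position was picked after its values were seen, and with 1 list per condition this is a description of these lists.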
